A study of Arabidopsis thaliana with 6 samples.

Results

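Strictosidine synthase-like (SSL) genes were followed in roots of Arabidopsis thaliana Col-0 plants, 4 weeks old and grown in hydroponic solution. The roots came from plants given 200 µM cadmium, a toxic heavy metal, for 6 h or from plants given none, with 3 arrays labelled control and 3 labelled cadmium. No transgene or mutation is named in the labels, which call the replicates biological, and they do not say how many plants made up a sample. RNA was read on Affymetrix ATH1 arrays, 1 per sample, and signals are in linear MAS5 units, in which the probes of a set are combined and each array is scaled.

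The family was given as 10 loci, of which 3 groups lie side by side in the RefSeq gene order: AT3G57010 to AT3G57030, AT3G51420 to AT3G51450, and AT1G74000 to AT1G74010. AT1G08470 stands alone. A gene was followed where the array annotation named it, and no other gene, for a probe set, and the probe set was to be chosen by the highest mean signal over the 6 arrays. In practice 6 of the 10 loci had 1 such probe set each, so that choice was never needed: AT3G57010, AT3G57020, AT3G57030, AT3G51440, AT3G51450 and AT1G74010. The other 4 loci, AT3G51420 (SSL4), AT3G51430 (YLS2, also SSL5), AT1G74000 (SS3) and AT1G08470 (SSL3), had no probe set with that name here and are not analysed. The same holds for 5 further loci of the family, among them AT3G59530 (LAP3), which is known for its part in making the pollen wall. All 6 measured genes passed the filter on dim probe sets, a mean signal of at least 73.0, which 15909 probe sets passed in all. AT3G57010 passed only through its cadmium arrays, with a mean signal of 350 there and of 41.1 in the controls.

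Strictosidine synthase proper is known from alkaloid-making plants such as Catharanthus roseus and Rauvolfia serpentina, where it joins tryptamine to secologanin in the first committed step towards the monoterpenoid indole alkaloids. Arabidopsis is not known to make strictosidine. Its SSL proteins share the beta-propeller fold of that enzyme, and the substrates of most of them are not established. Genes of the AT3G51420 to AT3G51450 group have been described in leaves as responding to defence hormones and pathogens. No more specific role is given here for the 6 genes measured.

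The pair of replicate 2 stood apart from the other arrays and bears on every value below. Its 2% trimmed mean signal was 216 without and 227 with cadmium, against 500 on each of the other 4. The 3' to 5' log2 ratio of 1 actin control transcript, a measure of RNA quality, was 2.05 and 3.22 there and 0.07 to 0.34 elsewhere. A GAPDH ratio stood apart too, at 2.02 and 1.67 against -0.60 to -0.19, and the other actin and GAPDH ratios were higher by less. Of the ubiquitin ratios 1 was barely higher, at 1.05 and 1.26 against 0.65 to 1.03. The other overlapped, at -0.02 and 0.37 against 0.08 to 0.59. Values are therefore given for all 6 arrays and for replicates 1 and 3 alone, 2 arrays a group, while replicate 2 gives 1 untested difference per gene. That replicate 2 opposed the other replicates was also known from an earlier analysis when this split was made. P-values within replicates 1 and 3 are thus selected in part on the outcome and do not allow for that choice. Arrays of the same number are set side by side because both arrays of replicate 2 stood apart, and the numbers are not taken to pair the samples. The part of scaling and RNA quality in these differences was not tested. Of the root markers 4 of 17 had a named probe set, and their summed signal was 5527 to 13267 without cadmium and 3840 to 14592 with it. Most of that sum was PYK10, an abundant root beta-glucosidase, at 3450 to 12847, with a log2 difference of 0.08 within replicates 1 and 3. The sum hides the dimmer markers, which were higher with cadmium in those replicates. EXPA7 and EXPA18 were higher by 0.77 and 1.15 (log2), and XTH26 went from 3.63 and 16.1 to 130 and 362. Of the shoot markers 3 of 14 were named, the photosynthesis genes PRK, RCA and SBPASE, with summed signals of 315 to 1924 without cadmium and 377 to 2310 with it. Neither list had a member past the threshold in either fit.

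Among the 6 genes, AT3G57010 and AT3G51440 were higher with cadmium in replicates 1 and 3, the latter by 1.36 ± 0.24 (log2 difference ± SE). For AT3G57010 the fold is given as a bound, at least 7.68-fold, because its controls there were among the dimmest signals. Log2 differences of its deposited signals, given below, rest on those dim controls. Both were lower with cadmium in replicate 2, and in the main fit over all 6 arrays none of the 6 genes passed the test. The call of AT3G51440 in replicates 1 and 3 lay close to the threshold. It was lost after quantile normalization and after median centring. AT1G74010 was the only gene of the 6 whose cadmium arrays all exceeded its control arrays in the deposited signals. The groups overlapped once the arrays were scaled alike, and its difference did not pass the test. AT3G57020, AT3G57030 and AT3G51450, each a direct neighbour of another measured member, did not pass either.

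In the AT3G57010 group, AT3G57010 gave signals of 11.9 and 13.2 in the controls of replicates 1 and 3 and of 374 and 607 after cadmium. Replicate 2 gave 98.3 in the control and 69.2 after cadmium. The cadmium arrays of replicates 1 and 3 were thus far above their controls, whereas in replicate 2 both arrays lay between these extremes and the groups of all 6 arrays overlapped. The log2 differences between same-numbered arrays, on the signals as deposited, were 4.97, -0.51 and 5.53 in replicates 1, 2 and 3. Because the control signals of replicates 1 and 3 lay below 62.1, a value that 30% of all signals fell short of, the fold between their groups is given as a bound, at least 7.68-fold higher with cadmium. With signals under 62.1 set to that value, the log2 differences in replicates 1 and 3 were 2.59 and 3.29. The limma test within replicates 1 and 3, adjusted over all 15909 probe sets, gave an adjusted p of 0.0142, and 0.0246 with signals under 62.1 set to that value. Leaving out 1 of the 2 cadmium arrays ended that call (adjusted p = 0.0916 without cadmium replicate 1 and 0.198 without cadmium replicate 3), while the log2 difference of the deposited signals, 5.25 with both arrays, was 5.60 and 4.90. In those fits cadmium has 1 array, which is assumed to vary like the controls. Over all 6 arrays the log2 difference was 3.33 ± 0.96 (SE, n = 3 per group) and 1.79 with signals under 62.1 set to that value. The former had an unadjusted p of 0.00306 and an adjusted p of 1 in limma.

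**Figure D1:**
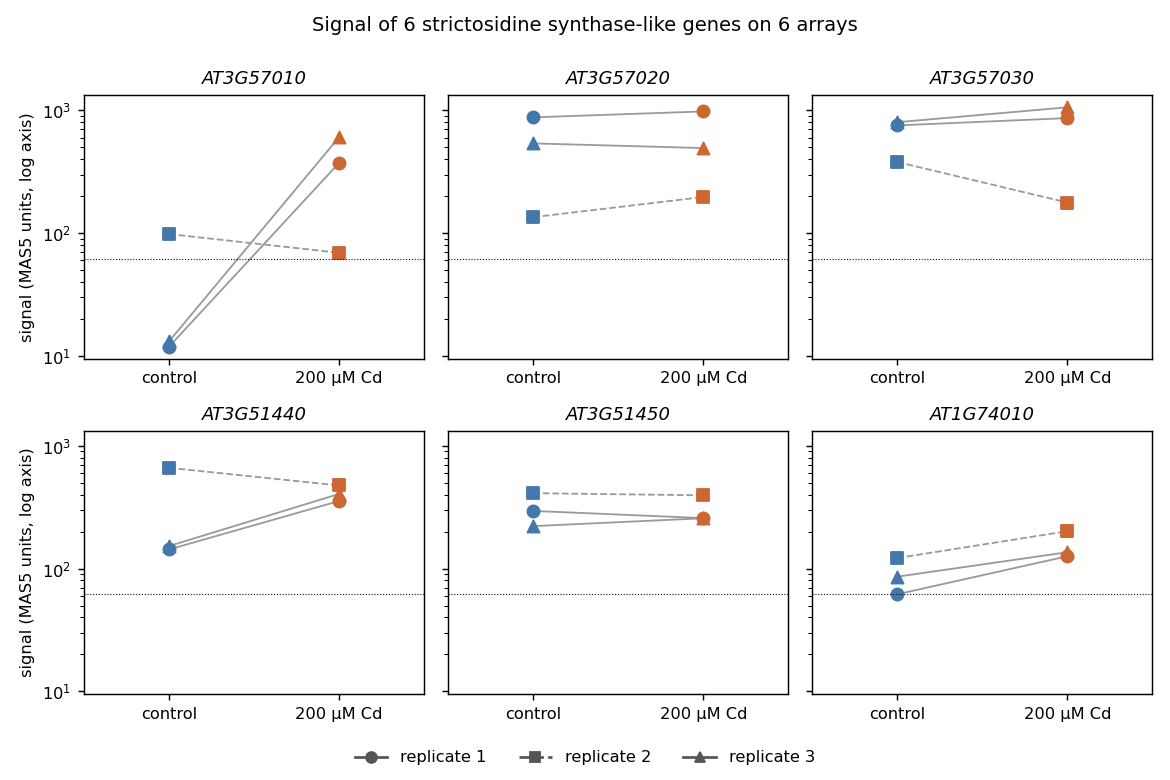
Signal of each measured gene (MAS5 units, log axis) on the control and the 200 µM cadmium (Cd) arrays. Points are single arrays, lines join the arrays of a replicate (dashed for replicate 2), and the dotted line marks the 30th percentile of all signals, 62.1. AT3G57010 climbs from 11.9 and 13.2 to 374 and 607 in replicates 1 and 3, and AT3G57020 beside it stays between 493 and 979 on the same arrays.

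AT3G57020, the next gene in the RefSeq order, gave signals of 877 and 538 in the controls of replicates 1 and 3 and of 979 and 493 after cadmium. Replicate 2 gave 135 in the control and 197 after cadmium. The 2 control arrays of replicates 1 and 3 differed more from each other than either did from its cadmium partner. Its log2 difference within replicates 1 and 3 was 0.02, with a 95% confidence interval of -1.05 to 1.09 (limma, adjusted p = 0.986). The difference over all 6 arrays was 0.19, with an interval of -1.58 to 1.97.

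AT3G57030, the third gene of the group, gave signals of 754 and 800 in the controls of replicates 1 and 3 and of 864 and 1058 after cadmium. Replicate 2 gave 380 in the control and 177 after cadmium. The 2 cadmium arrays of replicates 1 and 3 lay above the 2 controls, while replicate 2 went the other way by 1.10 on the log2 scale. The difference within replicates 1 and 3 was 0.30, with a 95% confidence interval of -0.25 to 0.85 (limma, adjusted p = 0.436). The difference over all 6 arrays had the other sign, at -0.17, with an interval of -1.87 to 1.54.

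In the AT3G51420 to AT3G51450 group only the last 2 genes were measured. AT3G51440 gave signals of 143 and 153 in the controls of replicates 1 and 3 and of 355 and 405 after cadmium. Replicate 2 gave 661 in the control and 474 after cadmium, so that the control array of that replicate was the highest of all 6 and the groups overlapped. The log2 difference over all 6 arrays was 0.75 ± 0.73 (SE, n = 3 per group) and did not pass. Its 95% confidence interval was -0.81 to 2.30. Within replicates 1 and 3 the gene was 2.57-fold higher with cadmium (limma, adjusted p = 0.0458), and the log2 differences between same-numbered arrays were 1.31, -0.48 and 1.41 in replicates 1, 2 and 3. This call lay close to the threshold. It was lost after quantile normalization (log2 difference 1.12, limma adjusted p = 0.0710) and after median centring (1.10, adjusted p = 0.0737), against 1.36 in the main fit. It was also lost when any 1 of the 4 arrays was left out, with log2 differences of 1.26 to 1.46. In those fits a lone array is assumed to vary like the other group.

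AT3G51450, its direct neighbour, gave signals of 294 and 222 in the controls of replicates 1 and 3 and of 257 in both cadmium samples. Replicate 2 gave 411 in the control and 395 after cadmium. The cadmium arrays of replicates 1 and 3 lay between their controls. The log2 difference within replicates 1 and 3 was 0.01, with a 95% confidence interval of -0.63 to 0.65 (limma, adjusted p = 0.987), against 0.76 to 1.96 for AT3G51440. The difference of AT3G51450 over all 6 arrays was -0.01, with an interval of -1.40 to 1.38.

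AT1G74010, in the group on chromosome 1, had the lowest mean signal of the measured members, 122. Its signal was 61.8, 122 and 85.9 in the controls of replicates 1, 2 and 3 and 126, 201 and 136 after cadmium. Every cadmium array exceeded every control array, by a narrow margin between cadmium replicate 1 and control replicate 2. The log2 differences between same-numbered arrays were 1.03, 0.73 and 0.66. The mean difference was 0.81 ± 0.66 (SE, n = 3 per group) over all 6 arrays (limma, adjusted p = 1) and 0.84 ± 0.38 within replicates 1 and 3 (adjusted p = 0.252). The separation of the groups depended on the lower scaling of replicate 2. Once each array was scaled to a trimmed mean of 500, it read 282 in the control of replicate 2 but 126 and 136 after cadmium in replicates 1 and 3, and the groups overlapped. The 3' to 5' log2 ratio of 1 ubiquitin control moved in the same way, with -0.02 to 0.28 in the controls and 0.37 to 0.59 after cadmium. Another ubiquitin ratio overlapped between the groups, at 0.65 to 1.05 and 0.94 to 1.26, as did the ratios of the actin and GAPDH controls. The part of RNA quality in the result was not tested.

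**Figure D2:**
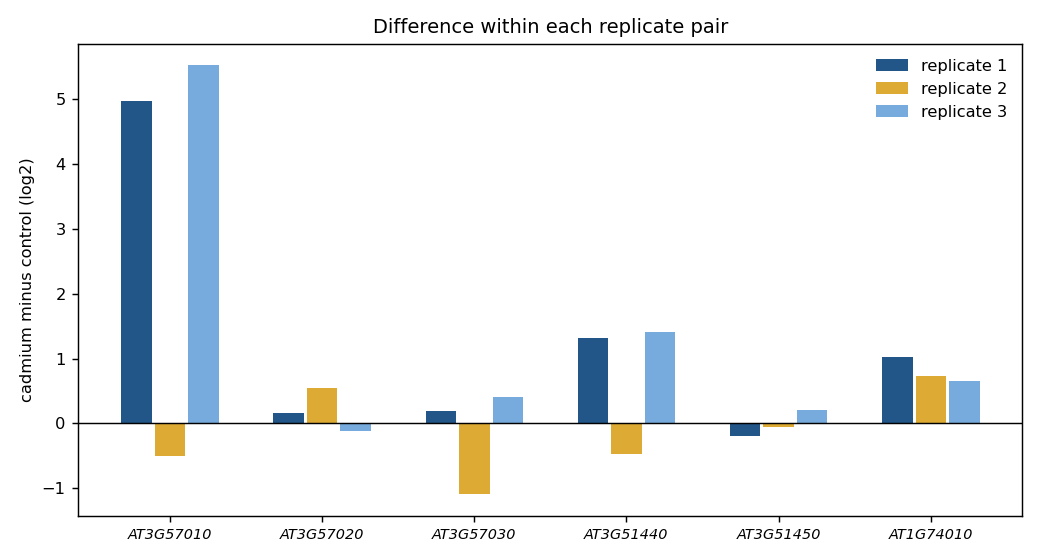
Cadmium minus control log2 difference in the deposited signal, 1 bar for each replicate number and gene, with 0 as no difference. AT1G74010 has 3 bars above 0 (1.03, 0.73 and 0.66), while AT3G57010, AT3G57030 and AT3G51440 have replicates 1 and 3 above and replicate 2 below 0.

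Read against all probe sets, the members' counts were as follows. The members were chosen with earlier results of these data known, so these shares and medians describe them and do not test the family. Over all 6 arrays 0 of 6 members passed an adjusted p of 0.05 in limma, as did 0% of the 15909 probe sets. At an unadjusted p under 0.05, the counts were 1 member, AT3G57010, and 84 probe sets. Within replicates 1 and 3, 2 of 6 members passed, both higher with cadmium, beside 4.53% of all probe sets in either direction. The 2 cadmium arrays lay above the 2 control arrays for 4 of 6 members and for 40.8% of all probe sets in replicates 1 and 3. Over all 6 arrays the cadmium group lay wholly above the control group for 1 member, AT1G74010, and for 0.71% of all probe sets, and after scaling to 1 trimmed mean for 0 members and 2.49%. Replicates 1 and 3 went 1 way and replicate 2 the other for 3 of 6 members and 59.7% of all probe sets, a share that members did not exceed. A higher signal with cadmium in 3 of 3 replicate numbers was found for 1 of 6 members and 12.7% of all probe sets. The median log2 difference of the 6 members was 0.57 within replicates 1 and 3 and that of all probe sets 0.22. In replicate 2 these medians were -0.27 and -0.11.

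The members took very different places among the differences of all probe sets. AT3G57010 was at percentile 99.97 of the log2 differences within replicates 1 and 3 and at percentile 26.9 in replicate 2. The first of these places rests on control signals under 62.1 and was not computed with such signals set to that value. AT3G51440 was at percentiles 96.2 and 28.2. AT1G74010 held a like place throughout, at percentiles 88.6, 86.3 and 82.2 in replicates 1, 2 and 3. AT3G57030 was at percentile 56.3 within replicates 1 and 3 and 8.05 in replicate 2, whereas AT3G57020 was at 33.8 and 82.0. Direct neighbours thus stood near opposite ends in the single pair of replicate 2, where nothing could be tested.

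Apart from cadmium, the level of several members set the arrays of replicate 2 apart. To compare levels without the unequal scaling, each signal was ranked among the 22746 probe sets of its own array that are not controls. AT3G51440 ranked at 90.6% without and 85.6% with cadmium in replicate 2, and at 43.7% to 64.6% on the other 4. AT3G51450 ranked at 83.7% and 83.0% there and at 51.2% to 60.0% elsewhere. AT1G74010 ranked at 55.4% and 70.1% there and at 27.9% to 40.2% elsewhere. In these 3 genes both arrays of replicate 2 thus lay above all other arrays. With arrays scaled to 1 trimmed mean, replicate 2 exceeded the other replicates by 2.42 in AT3G51440, 1.83 in AT3G51450 and 1.86 in AT1G74010 (log2). Both arrays of replicate 2 lay above the other 4 for 3 of 6 members and for 14% of all probe sets, and the median over all probe sets was -0.05. The AT3G57010 group did not share this. AT3G57020 and AT3G57030 were lower on replicate 2, by -0.91 and -0.56 on the same scale. With arrays scaled alike, AT3G57020 read 312 and 433 there, below the 493 to 979 of the other 4 arrays. In AT3G57030 the arrays of replicate 2 overlapped the others. AT3G57010 was 1.27 higher there on average, between its low control and high cadmium arrays of the other replicates. These levels were compared as a description, without a test.

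**Figure D3:**
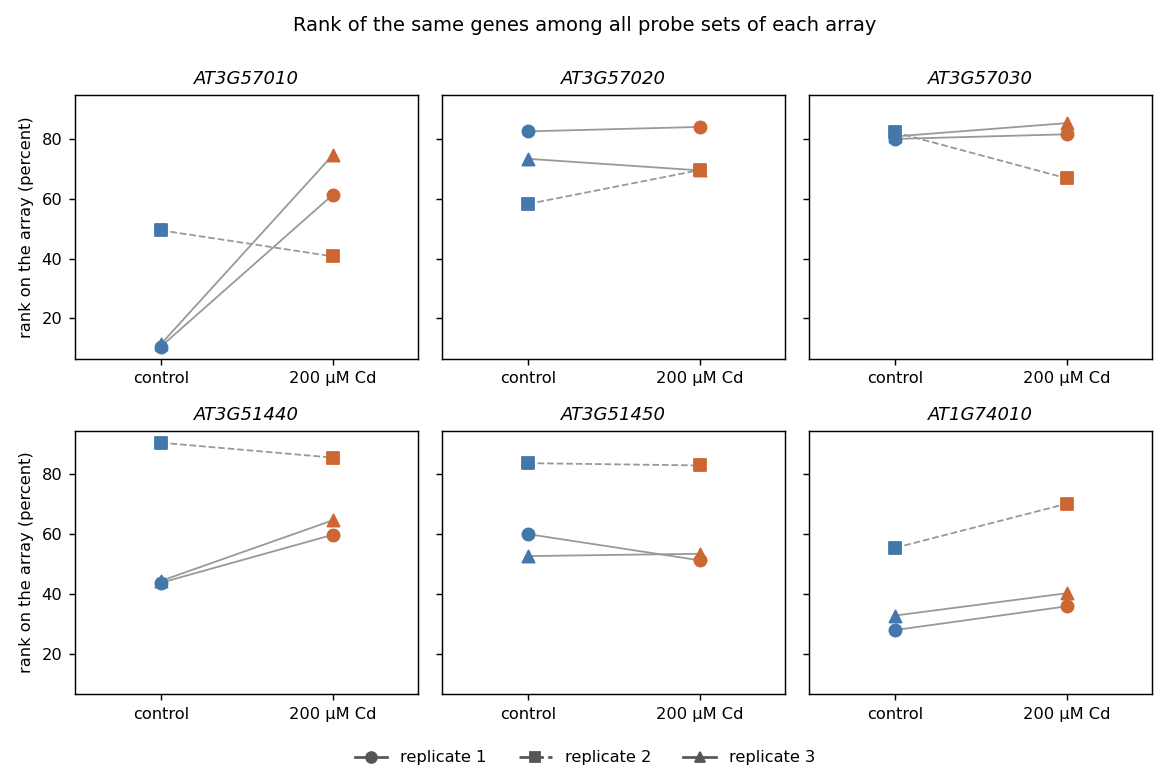
Rank of each gene's signal among the probe sets of the same array (percent, 100 being the brightest), by group and replicate as in the plot of signals. The dashed pair of replicate 2 lies above the other arrays in AT3G51440 (85.6% and 90.6%), AT3G51450 and AT1G74010, but not in the 3 genes of the AT3G57010 group.

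Whether neighbouring genes responded differently was tested with the log2 ratio of their signals on the same array, in which the scaling of the array cancels. Of 6 neighbouring pairs, 3 had both genes measured, and only the difference of the ratio between groups is read, since signals of different probe sets are not comparable as levels. With 3 arrays a group the smallest two-sided p of the exact permutation test is 0.1. For AT3G57010 against AT3G57020 the ratio was -6.20, -0.46 and -5.35 in the controls of replicates 1, 2 and 3 and -1.39, -1.51 and 0.30 after cadmium. It shifted by 4.81 and 5.65 in replicates 1 and 3 and by -1.05 in replicate 2. The mean shift of 3.14 gave an exact p of 0.3 (two-sided permutation test, 0.6 after Benjamini-Hochberg adjustment over 3 pairs). These sizes rest on the control signals of AT3G57010 under 62.1, and with such signals set to 62.1 the mean shift was 1.60 (exact permutation p = 0.3).

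For AT3G51440 against AT3G51450 the ratio was -1.04, 0.69 and -0.54 in the controls and 0.46, 0.27 and 0.66 after cadmium. The shifts were 1.5 and 1.2 in replicates 1 and 3 and -0.42 in replicate 2, with a mean of 0.76 (exact permutation p = 0.4, adjusted 0.6). For AT3G57020 against AT3G57030 the shifts were -0.04, 1.64 and -0.53 in replicates 1, 2 and 3, with a mean of 0.36 (exact permutation p = 0.7, adjusted 0.7). In each of the 3 pairs the group ranges overlapped over all 6 arrays. In replicates 1 and 3 alone they did not overlap for the 2 pairs with AT3G57010 and AT3G51440, where 2 arrays a group allow no p under 0.333.

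**Figure D4:**
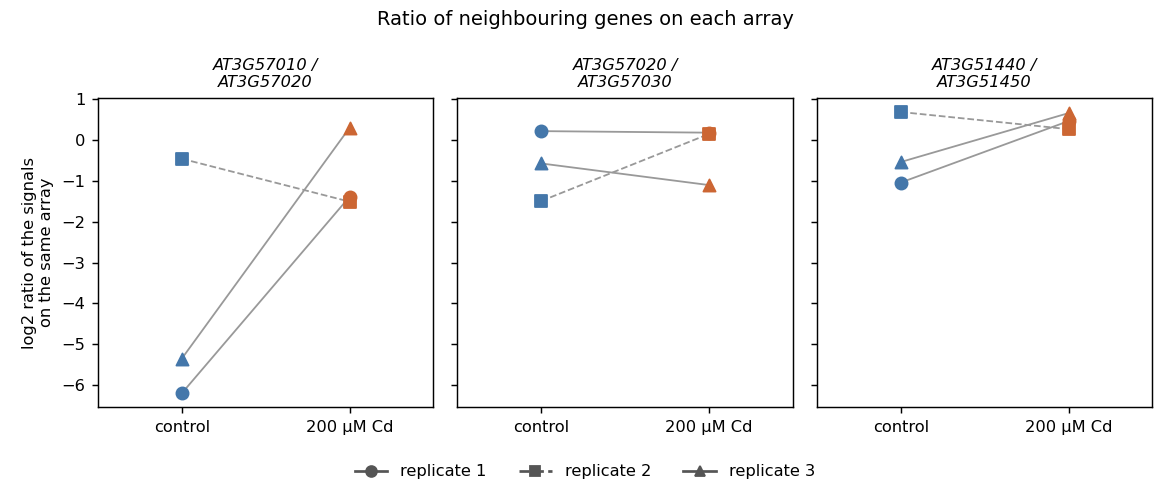
Log2 ratio of the signals of 2 neighbouring genes on the same array, for control and cadmium (Cd), with replicate 2 dashed. In replicates 1 and 3 the ratio of AT3G57010 to AT3G57020 moves up by 4.81 and 5.65, with control signals of AT3G57010 under 62.1, and that of AT3G57020 to AT3G57030 moves by -0.04 and -0.53.

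The genes next to each group, 2 on either side in the RefSeq order, gave 5 named probe sets, and none passed the threshold in either fit. AT3G57000, directly before AT3G57010, gave 705 and 468 in the controls of replicates 1 and 3 and 871 and 628 after cadmium, a log2 difference of 0.37 (adjusted p = 0.499). It did not show the wide difference of the gene beside it. AT3G51410, directly before the AT3G51420 to AT3G51450 group, was higher with cadmium in 3 of 3 replicate numbers, by 0.90, 0.57 and 0.88 (log2), with an adjusted p of 0.231 within replicates 1 and 3. AT3G51470, after the same group, was too dim to be tested, at 47.1 to 73.2. SPPA, a chloroplast protease before AT1G74000, and CPNIFS, a chloroplast cysteine desulfurase near AT1G08470, differed by 0.19 and -0.17 within replicates 1 and 3 (adjusted p = 0.677 and 0.726).

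Lists of defence hormone markers and yellow-leaf-specific genes, the latter the list YLS2 belongs to, were thinly covered. Of 12 salicylate markers 1 was named, GRX480, a glutaredoxin induced by salicylate, with a log2 difference of -1.65 within replicates 1 and 3 (adjusted p = 0.266). Its signal was 678, 832 and 135 in the controls of replicates 1, 2 and 3 and 118, 702 and 78.6 after cadmium. Of 16 jasmonate markers 2 were named and 1 was tested, OPCL1, a CoA ligase of jasmonate synthesis. OPCL1 gave 2799 and 2185 in the controls of replicates 1 and 3 and 876 and 829 after cadmium. It was lower with cadmium there (log2 difference -1.54, limma, adjusted p = 0.0326), as were 516 of the 721 probe sets that passed in that fit. In replicate 2 it was 0.43 higher. Of 6 yellow-leaf-specific genes 1 was named, YLS5, at -0.35 within replicates 1 and 3 (adjusted p = 0.421) and 0.79 in replicate 2.

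The genes most like AT3G57010 were sought among 8605 other named genes by the root mean square difference of log2 signals over the 6 arrays, each array centred on its median and each gene on its own mean. The nearest 5 were AT2G37700 (0.76), AT5G62280 (0.78), XTH26 (0.80), AT5G67150 (0.82) and AT1G78990 (0.83), against a median of 2.19 over all genes compared. AT2G37700 gave 20.2 and 9.65 in the controls of replicates 1 and 3, 233 and 179 after cadmium, and 91.4 and 63.5 in replicate 2. XTH26, a cell wall enzyme of root hairs, gave 3.63 and 16.1 in those controls and 130 and 362 after cadmium, but was 0.96 higher with cadmium in replicate 2, where AT3G57010 was lower. All 5 had control signals under 62.1 in replicates 1 and 3, so the likeness rests in part on signals among the dimmest 30% of the arrays.

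The genes most like AT3G51450 lay at smaller distances. The nearest was AT3G20270 at 0.14, followed by AT4G28170, AT1G62730, AT3G44140 and AT3G02490 at 0.18 to 0.21, against a median of 0.99. Among the members themselves, AT1G74010 and AT3G51450 were the nearest pair (0.48), AT1G74010 and AT3G51440 came next (0.50), and AT3G51440 and AT3G51450 followed (0.65), just before AT3G57020 and AT3G57030 (0.67). AT3G57010 lay at least 1.68 from every other member, and 2.45 from AT3G57020 beside it, distances that include its control signals under 62.1. These values describe 6 arrays, of which those of replicate 2 stand apart, and carry no test.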

How the data were processed

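The values analysed are the intensity of each of 22810 probe sets on 6 arrays, deposited by the authors on a linear scale and, per the submitters' processing notes, computed with MAS5; its version and scaling target are not given in the sources used here. The titles of the samples gave the groups and the replicate numbers. The members, the lists and the split by replicate were chosen with earlier results of these data known.

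Signals were tested as log2 values. A 0, found 7 times, was set to the lowest positive signal of its array. The 64 control probe sets and those with a mean signal under the 30th percentile were left out. Models were fitted in limma 3.58.1 (R 4.3.3) with an intensity trend, two-sided tests and Benjamini-Hochberg adjustment over all 15909 probe sets (threshold 0.05), with 4 residual degrees of freedom over all 6 arrays and 2 within replicates 1 and 3. The fits were checked on simulated data. P-values measure the spread between these arrays, whose number limits the precision. Of the annotated probe sets, 13513 had 1 gene and 503 several, and 13484 matched the TAIR10.1 RefSeq table, used for names and gene order. Named genes were the members, 2 genes on either side of each group, the listed markers and the 5 genes most like AT3G57010 and AT3G51450. No sequences are shown.

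Alternatives were other scalings, filters, a floor, array weights, no trend, a replicate block and leaving out each array.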

Additional observations from a re-analysis of the deposited data

How the results depend on the processing

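With array weights, whose estimation stopped short of full convergence, 2 members (AT3G57010 and AT3G51440) and 1560 of 15909 probe sets passed over all 6 arrays, where 0 members passed under the other scalings, filters, floor, trend setting, replicate block or any left-out array. Within replicates 1 and 3 the count fell from 2 to 1, AT3G57010, after quantile normalization, median centring, no filter, a filter at the median signal, the floor or no trend, and to 0 to 1 without single arrays. Over all probe sets those 6 settings gave 628, 791, 547, 656, 610 and 353, against 721, so that under median centring the total rose while the members' count fell. There the adjusted p of AT3G57010 was 0.0138 to 0.0366 under the settings that kept all 4 arrays, the replicate block aside. Same-numbered arrays did not all deviate together (r = 0.11, -0.04 and 0.29), so the numbers are not taken as pairs. With a replicate block AT3G57010 (adjusted p = 0.000752) and AT3G51440 (0.00778) passed within replicates 1 and 3, where 3521 probe sets did instead of 721.

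Small differences changed sign. Over all 6 arrays without single arrays, AT3G57020 ranged from -0.59 to 0.80, AT3G57030 from -0.64 to 0.64 and AT3G51450 from -0.23 to 0.22, and AT3G57030 was 0.22 with array weights. Within replicates 1 and 3, AT3G57020 was -0.056 after quantile normalization and -0.24 after median centring, and -0.48 to 0.51 without single arrays. AT3G51450 was -0.24 and -0.25, and -0.20 to 0.21. The shift between AT3G57020 and AT3G57030 was -0.28 within replicates 1 and 3, a setting chosen after seeing the data, and -0.080 to 0.78 without single arrays. The cause was not tested. Counts over all probe sets within replicates 1 and 3 were 142 without cadmium replicate 1, 146 without cadmium replicate 3, 677 without control replicate 1 and 1266 without control replicate 3. The floor lowered the difference of AT3G57010 from 5.25 to 2.94 there and from 3.33 to 1.79 over all 6 arrays, and that between AT3G57010 and AT3G57020 from 3.14 to 1.60. Without control replicate 2 the last was 4.91, and without control replicate 1 2.04. No detection calls were used, so how far a signal under 62.1 stands above background is not known.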
